A study of Bos taurus with 12 samples.

Results

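The genes described here maintain and copy DNA: the replicative and translesion DNA polymerases, the sliding clamp and its loaders, single-strand binding proteins, ligases, RNase H2, and the proteins of homologous recombination, end joining, Fanconi anaemia, mismatch and nucleotide excision repair, together with ADP-ribosyltransferases of the PARP family. They were chosen by symbol from the array annotation, among probe sets with 1 gene symbol, and 68 of the 9155 annotated genes matched. RAD50 was left out of the group by its definition. Each gene was read from 1 probe set (a set of short probes for 1 transcript), the one with the highest mean signal over all arrays. For the 46 genes with a single probe set this was no choice; the other 22 had several.

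Oocytes of Japanese Black cattle were profiled on 12 Affymetrix bovine arrays, 3 per group, in 4 groups that combine donor age with meiotic stage. Adult donors were cows whose ovaries came from an abattoir, with no age given, and prepubertal donors were heifers of 9 to 12 months whose ovaries were removed with a spay device on farms. Germinal vesicle (GV) oocytes were taken straight after aspiration from follicles of 2 to 8 mm; metaphase II (MII) oocytes were those with a polar body after 20 to 22 h of in vitro maturation in a medium with serum. Every array received amplified RNA from 50 pooled oocytes stripped of cumulus cells, so a value is the mean of a pool. In the labels the pools count as biological replicates, without naming the animals behind each; if animals are shared, the p-values measure a smaller spread than that between animals. In a pool, fewer cells carrying a transcript and less transcript per cell cannot be told apart. Age also goes with the way the ovaries were collected, and stage with time in culture, and these cannot be told apart here.

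A grown GV oocyte is arrested in prophase of the first meiotic division and holds a store of maternal mRNA. Transcription is largely silent by the end of growth, and the store is translated, masked or degraded in a programmed order while the oocyte proceeds to MII. Meiotic breaks have been repaired by then, and the stored repair and replication factors are known to serve the oocyte's response to new DNA damage and the rapid DNA copying of the early embryo. Polymerase epsilon and polymerase delta copy the leading and lagging strands together with the PCNA clamp. RPA covers exposed single strands, RAD17 loads the checkpoint clamp where replication stalls, polymerase zeta copies past damaged bases, and RNase H2 removes ribonucleotides left in DNA.

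All values are log2 signals, and a difference of 1 unit is a 2-fold difference in signal. Levels are compared between arrays for 1 probe set at a time, never between genes, because probe sets bind with different strength. Of the 68 genes, 61 had a mean signal above the 40th percentile of all probe sets (5.57) and were tested. The 7 that did not were RAD9B (mean 4.58), POLL (4.65), FANCC (4.90), POLD4 (5.06), PARP8 (5.10), ERCC2 (5.23) and POLH, which lay just outside at 5.57, while POLK lay just inside at 5.87. Of the 61, 52 had all 4 group means above that level; ERCC6L, FANCE, FANCG, PARP14, RFC2 and RNASEH2A had 3 of 4 and ERCC6L2, POLA2 and POLK had 2, so these 9 passed partly through the groups where they read higher. No value of a member was at 0 on any array.

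The labelled cell type held on 9 of the 12 arrays. On those 9, the median of 8 measured oocyte markers (GDF9, BMP15 and zona pellucida genes among them) lay 6.18 to 8.77 above the array's median. It lay at -0.45 on GV prepubertal replicate 1, -0.11 on MII prepubertal replicate 1 and 0.82 on GV adult replicate 1. The median of 10 cumulus and granulosa markers was 2.66 above the array median on the first of these and 4.95 on the second, against -2.39 to 0.11 on the 9 arrays and -0.42 on GV adult replicate 1. None of these 10 was at 0 on any array. The median of 8 theca and stroma markers lay at 1.57 and 2.93 on the 2 prepubertal arrays and between -2.34 and 0.35 on the 9, with 1 single value at 0, LUM on MII adult replicate 1. The median of the 6 measured blood markers lay below the array median on all 12 arrays, though single ones lay above it, such as CD14 (9.80), HBA (9.30) and HBB (8.44) on GV adult replicate 1, whose median was 8.30. The 3 measured markers of dividing cells (TYMS, CCNA2, RRM2) had a summed signal of 13.51 to 14.46 on the 9 arrays and 9.99 to 10.55 on the other 3. MII adult replicate 3 had an oocyte profile, but correlated at no more than 0.58 with any other of the 9 arrays. Each of the other 8 reached 0.64 or more with at least 1 array (Pearson, across 14409 probe sets that are not independent). By its median correlation, 0.55, MII adult replicate 3 did not stand apart, since GV prepubertal replicate 2, which was kept, had 0.54. Counts of members are therefore given over all 12 arrays and over the 9, and where it matters over 8 arrays, without MII adult replicate 3. A difference of a single gene is over the 9 arrays unless stated, and that over 12 is added for the probe set used where it has the other sign or differs by more than 1.5 times. The 9-array fit leaves 2 arrays in each group but MII adult, which has 3.

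**Figure D1:**
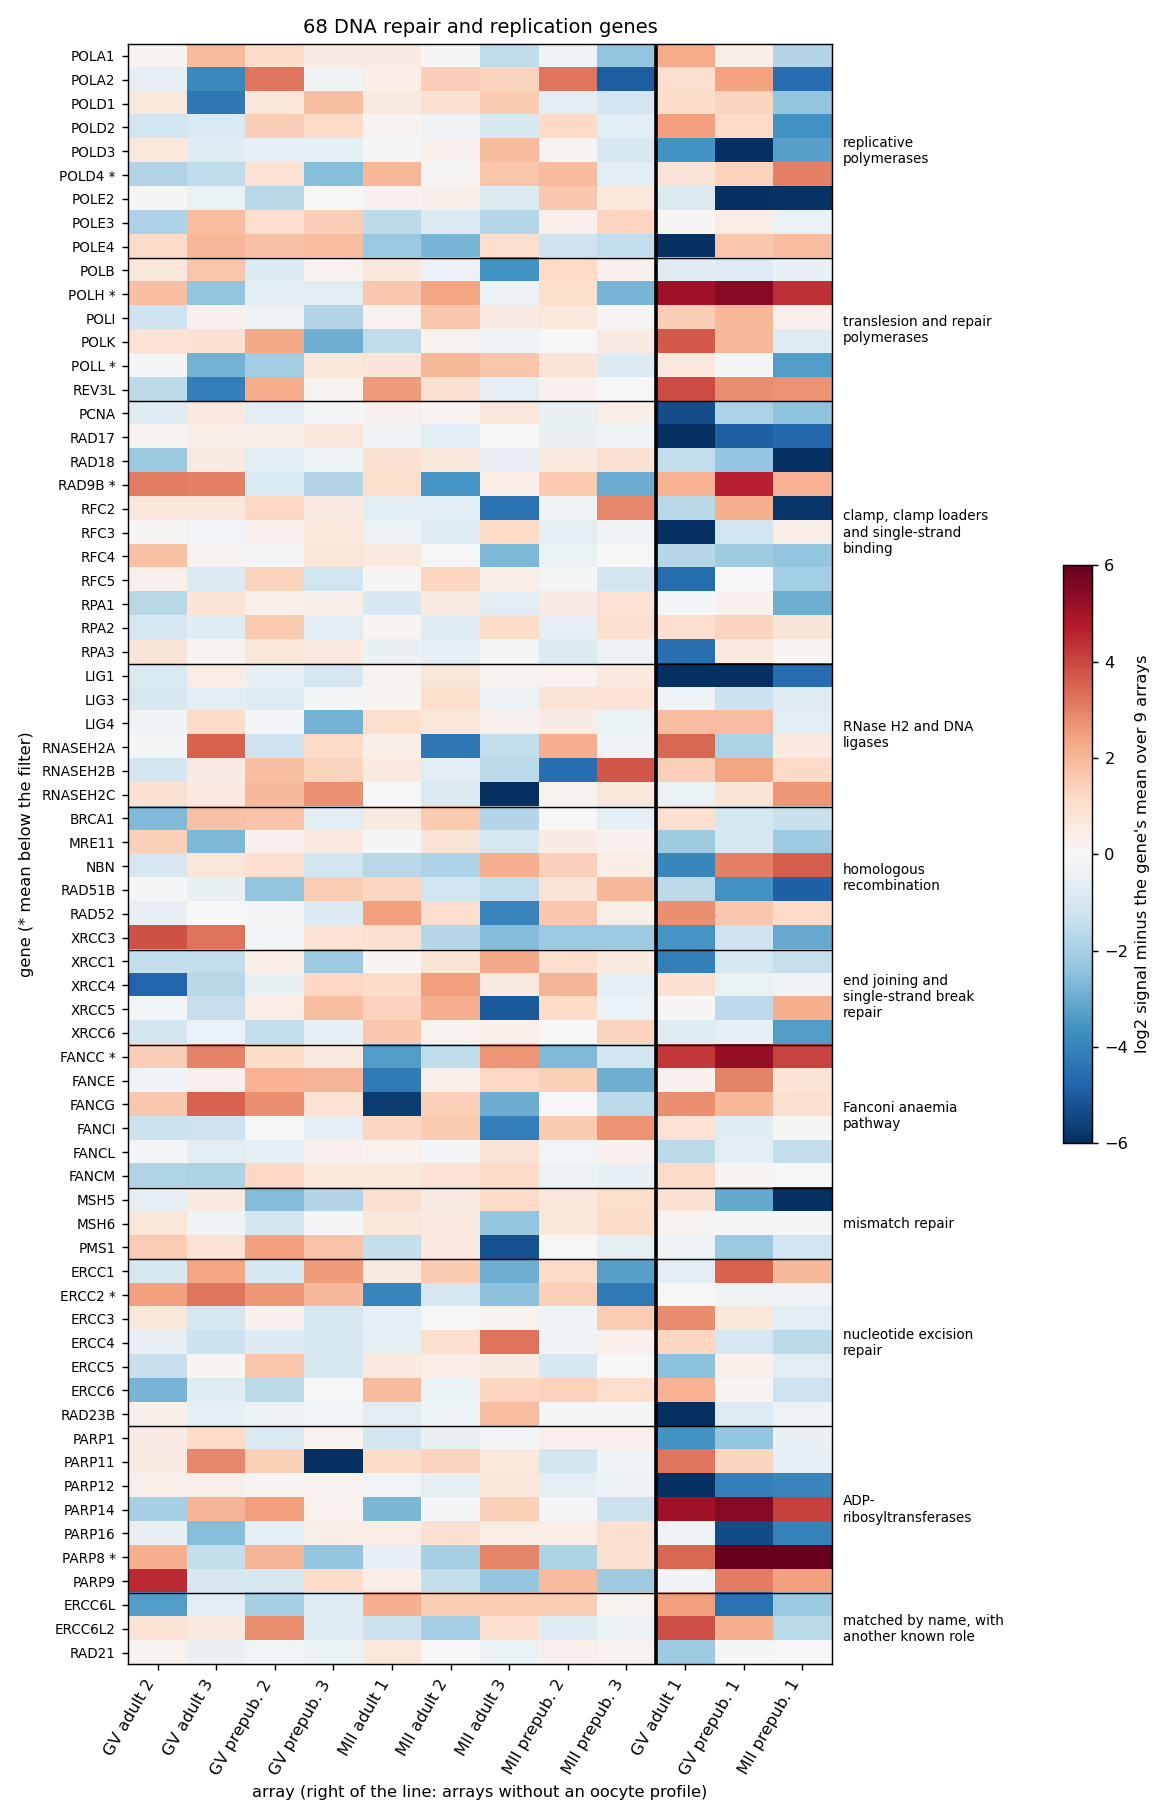
Each row is 1 of the 68 genes and each column 1 of the 12 arrays, and colour gives the log2 signal minus the gene's mean over the 9 arrays with an oocyte profile (scale from -6 to 6, values beyond it drawn at the limit). The 3 arrays right of the line hold most of the deep blue and deep red cells, for example LIG1, RAD17 and PARP12 in blue, while rows such as RPA3, FANCL and RAD21 are nearly even across the 9 arrays.

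Most of these genes were measured in oocytes with a spread of more than 2-fold between pools of 1 group. The median within-group SD of the 61 genes was 1.19 log2 units over the 9 arrays, against 1.50 for all 14409 probe sets tested; over 12 arrays it was 1.84 against 1.86. The spread itself differed widely between genes. RAD17 (0.24), FANCM (0.25), RPA3 (0.27), RAD21, a cohesin subunit (0.40), PARP12 (0.40), FANCL, the ubiquitin ligase of the Fanconi anaemia pathway (0.47), MSH5 (0.50), LIG1 (0.51), PARP1 (0.51) and LIG3 (0.53) had the lowest within-group SDs. POLA2 (3.0), RNASEH2B (2.77), PARP11 (2.66), XRCC5 (2.62) and ERCC1 (2.55) varied by several-fold between pools of the same label.

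Between prepubertal and adult oocytes none of these genes passed the threshold used, an adjusted p under 0.05 in limma over all 14409 probe sets. At GV, 0 of 61 genes passed over 12 arrays and over the 9, as did 0% of all probe sets. At an unadjusted p under 0.05, limma called 0 genes over 12 arrays (2.51% of all probe sets) and 4 over the 9 (4.64% of all probe sets): REV3L, FANCM and XRCC4 with higher values in heifers (3.24% of all probe sets in that direction) and XRCC3 with lower ones (1.39%). Of the 61 genes, 35 were higher in heifers over the 9 arrays, with a median difference of 0.21 against 0.23 for all probe sets. The groups did not overlap for 19 genes, beside 27.3% of all probe sets with 2 arrays against 2. At MII, 0 genes passed at the adjusted threshold over 12 or 9 arrays (0% of all probe sets). RNASEH2C alone was called at an unadjusted p under 0.05 in limma over 12 arrays (2.66% of all probe sets) and 0 genes were over the 9 (2.56%). There 32 of 61 were higher in heifers, with a median of 0.03 against 0.07 for all probe sets. Over 12 arrays 7 genes had groups that did not overlap at MII (9.96% of all probe sets) and 2 did at GV (5.68%).

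Between GV and MII, no gene of the group passed the adjusted threshold over 12 or 9 arrays, and several differed by 2 to 5 log2 units in adults. In adults, over 12 arrays, 0 of 61 genes passed the adjusted threshold (0% of all probe sets) and 4 had an unadjusted p under 0.05 in limma (7.93% of all probe sets): FANCG and RNASEH2A lower at MII, XRCC1 and XRCC4 higher. Over the 9 arrays, 12 of the 61 (19.7%) had an unadjusted p under 0.05 in limma, beside 11.4% of all probe sets. They were 6 higher at MII (6.94% of all probe sets) and 6 lower (4.48%), and 0 passed the adjusted threshold, which 0.118% of all probe sets did. By the probe set used, the lowest adjusted p of a member there was 0.138, for XRCC3. The median difference was 0.10 against 0.05 for all probe sets, with 35 genes higher at MII, and 23 genes had groups that did not overlap, beside 28.0% of all probe sets.

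In heifers, over 12 arrays, 0 of 61 genes passed at either threshold (0% and 3.41% of all probe sets in limma), and the groups did not overlap for 9 (9.72%). Over the 9 arrays 5 genes (8.20%, beside 6.99% of all probe sets) had an unadjusted p under 0.05 in limma: LIG1 and MSH5 higher at MII (3.57%), POLE4, RPA3 and RAD17 lower (3.42%), and 0 passed the adjusted threshold (0%). The median difference was 0.14 against -0.14 for all probe sets, and 34 genes had groups that did not overlap, beside 40.2%. The 2 maturation comparisons share no array. Over the 9 arrays, 40 of the 61 genes (65.6%) had the same sign in both ages and 62.5% of all probe sets did; the correlation across genes, which are not independent replicates, was 0.35 for the members and 0.33 for all.

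**Figure D2:**
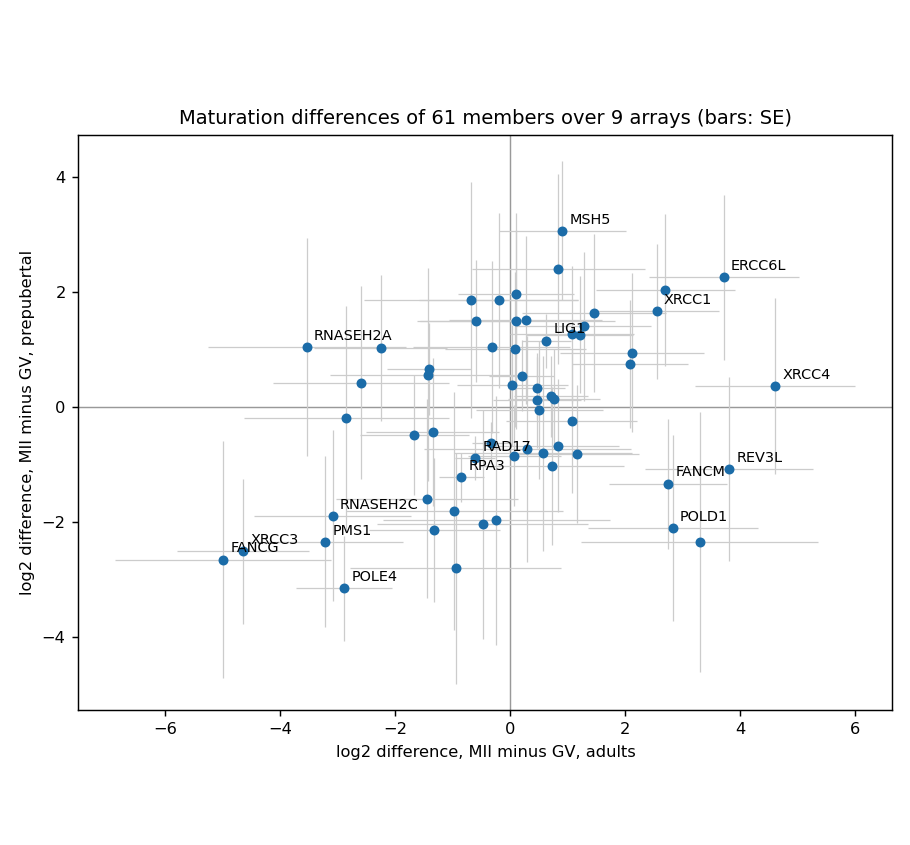
Each point is 1 of the 61 tested genes, with the MII minus GV difference (log2) in adults on the x axis and in prepubertal donors on the y axis, from limma over the 9 arrays; bars are standard errors. POLE4 lies at -2.89 and -3.16, RPA3 and RAD17 lie close to the diagonal with short bars, and FANCM, REV3L and POLD1 lie on opposite sides of 0 in the 2 ages.

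With both ages pooled, all 5 MII arrays lay on one side of all 4 GV arrays for 7 of the 61 genes. ERCC6L, PARP16 and XRCC6 were higher on every MII array (3 genes, beside 3.82% of all probe sets), and PMS1, POLE4, RAD17 and RPA3 were lower on every MII array (4 genes, beside 3.53%). With quantile normalization the MII arrays still lay apart for ERCC6L, PMS1, POLE4, RAD17 and RPA3 and overlapped for PARP16 and XRCC6. With each array centred on its median they lay apart for ERCC6L and PMS1 only. Centring also moved the median difference of all tested probe sets in heifers from -0.14 to 0.66. None of these 7 genes turned its direction under these scalings of the 9 arrays in either age.

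Among the replicative polymerases, POLE4, a small histone-fold subunit of polymerase epsilon, read lower at MII than at GV in both ages on the 9 arrays. In adults it read 7.40, 14.51 and 15.37 on GV replicates 1, 2 and 3, and 11.14, 10.60 and 14.40 on MII replicates 1, 2 and 3. The GV heifer replicates read 14.98, 15.12 and 15.25, and the MII heifer replicates 15.21, 12.15 and 11.90. The 4 GV arrays with an oocyte profile thus lay between 14.51 and 15.37, and 4 of the 5 such MII arrays between 10.60 and 12.15. Outside the range of their stage lay GV adult replicate 1, the lowest of all, and MII prepubertal replicate 1, which was as high as a GV array. Both are arrays without an oocyte profile. MII adult replicate 3, which has an oocyte profile, also lay outside: at 14.40 it was just below the lowest of the 4 GV values.

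POLE4 was the one member that any fit called. Over 12 arrays the difference between MII and GV was -0.38 (SE 1.76) in adults and -2.03 (SE 1.76) in heifers, with adjusted p of 0.952 and 0.999 in limma. It was -2.89 over the 9 arrays (SE 0.83, adjusted p 0.174) in adults and -3.16 (SE 0.91, adjusted p 0.589) in heifers. Over the 8 arrays without MII adult replicate 3, POLE4 fell by 4.07 in adults (SE 0.45, adjusted p 0.00233 in limma), where 0.479% of all probe sets were called, and by 3.16 in heifers (SE 0.45, adjusted p 0.0459), where 0.0347% were. These calls rest on 2 arrays per group. They also depend on leaving out MII adult replicate 3, which held the highest POLE4 reading (14.40) of the MII arrays with an oocyte profile. The adult call was kept with quantile normalization (-3.84, adjusted p 0.00708) and lost with median centring (-3.78, adjusted p 0.168), and the heifer call was lost with both (-3.15, adjusted p 0.0552, and -2.36, adjusted p 0.452). With same-numbered heifer pools paired as a replicate block, the heifer call was also lost (-3.16, SE 0.46, adjusted p 0.154 in limma). At GV the ages differed by 0.25 (SE 0.91) over the 9 arrays and at MII by -0.03 (SE 0.83), with adjusted p of 1.0 in limma for both; over 12 arrays these were 2.69 and 1.04.

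**Figure D3:**
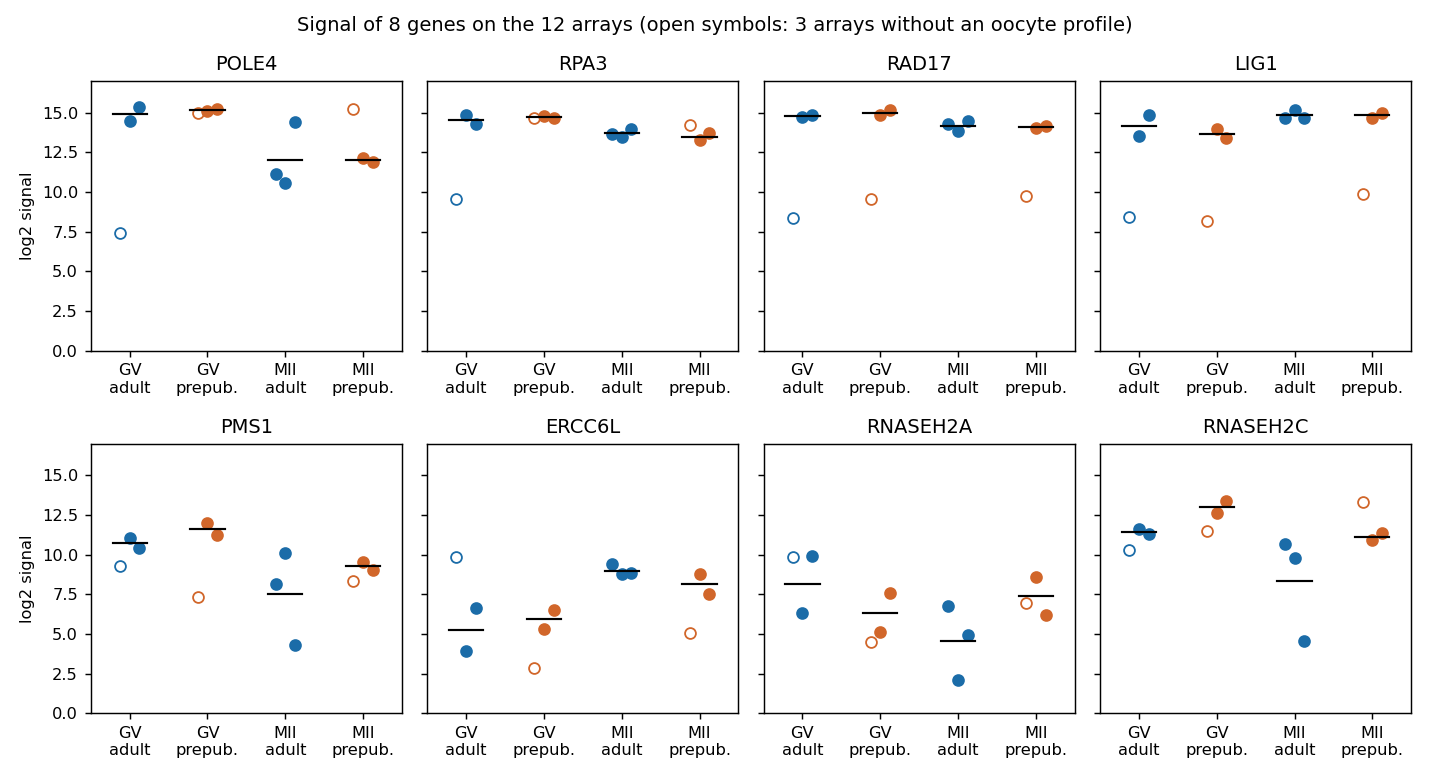
The log2 signal (y axis) of 8 genes is shown on every array by group (x axis), with adults in blue, heifers in orange, open symbols for the 3 arrays without an oocyte profile and a line at the group mean over the 9 arrays. Filled MII points of POLE4, RPA3, RAD17 and PMS1 lie below the filled GV points and those of ERCC6L above; RNASEH2A and RNASEH2C scatter within groups.

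The other subunits of these polymerases gave no common pattern. POLE2, the second subunit of polymerase epsilon, ranged from 7.78 to 11.06 over the 9 arrays, and POLE3, the histone-fold partner of POLE4, from 7.43 to 11.14. Of the 8 replicative polymerase genes tested, over the 9 arrays, 5 were higher at MII in adults (median 0.42) and 2 in heifers (median -1.57). POLD1, the catalytic subunit of polymerase delta, read 7.95 and 3.0 on GV adult replicates 2 and 3, 7.84, 8.22 and 8.87 on the MII adult arrays, 7.97 and 9.10 on GV heifer replicates 2 and 3, and 6.68 and 6.17 on MII heifer replicates 2 and 3. Its maturation change in heifers minus that in adults was -4.94 (SE 2.19, adjusted p 0.999 in limma); over 12 arrays it was -4.50, and without GV adult replicate 3, the array that read 3.0, -2.77. POLA2, of the primase complex, had the largest within-group SD of the group and read from 1.38 to 9.50 on the 9 arrays.

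REV3L, the catalytic subunit of polymerase zeta, read 10.68, 5.17 and 2.67 on GV adult replicates 1, 2 and 3, and 9.56, 8.96 and 6.97 on the GV heifer replicates. At MII it read 9.31, 7.65 and 6.23 in adults and 9.44, 7.02 and 6.73 in heifers. GV adult replicates 2 and 3 were the lowest of the 12 arrays, and the 3 arrays without an oocyte profile were the highest. REV3L was 4.04 higher in heifers than in adults at GV over the 9 arrays (SE 1.60, adjusted p 0.997 in limma) and 3.81 higher at MII than at GV in adults (SE 1.46, adjusted p 0.317); the 2 differences share the 2 GV adult arrays. In heifers, MII minus GV was -1.09 (SE 1.60, adjusted p 0.926), so that the maturation changes differed by -4.90 between the ages (SE 2.16, adjusted p 0.999). Over 12 arrays, with GV adult replicate 1 at 10.68, these differences were smaller: 2.32 for age at GV, 1.55 for maturation in adults and -2.32 for the difference of the changes.

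A second REV3L probe set gave the opposite reading. On GV adult replicates 2 and 3 it read 9.45 and 5.76, and on the 3 MII adult arrays 4.24, 1.89 and 3.39. Its MII minus GV difference in adults was -4.43 (SE 1.69, adjusted p 0.317 in limma) where the brighter probe set gave 3.81, and its heifer minus adult difference at GV was -1.52 where the brighter gave 4.04. Over 12 arrays it gave -5.36 and -3.47. The direction of REV3L therefore depends on which of its probe sets is read, and the files do not say which transcript each one measures.

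For 3 further genes, whose lead came from those 2 GV adult arrays, the second probe set did not repeat the difference. Over the 9 arrays it lay within 1 SE of 0 for adult maturation and for age at GV (SE 1.14 to 1.54). That is no clear reversal. XRCC3, a gene of homologous recombination, read 13.13 and 12.58 on GV adult replicates 2 and 3, 9.16 and 10.19 on GV heifer replicates 2 and 3, and 6.71 to 10.29 on the 5 MII arrays. Its adult maturation difference was -4.65 (SE 1.15, adjusted p 0.138 in limma), but 0.73 from its other probe set; at GV, heifers minus adults gave -3.18 and 0.71. Over 12 arrays the probe set used gave -2.29 and -1.35, and the other probe set had the same sign, at -0.58 and -0.37. XRCC4, the partner of DNA ligase IV in end joining, read 2.97 and 6.05 on GV adult replicates 2 and 3 and 7.16 to 10.23 on the other 7 arrays. Its adult maturation difference was 4.61 (SE 1.40, adjusted p 0.201 in limma) against -0.03 from the other probe set, and its age difference at GV 3.61 against -0.25. Over 12 arrays the age difference was 1.96 against -0.73. The adult maturation difference there was 3.22 against 0.44, with the same sign. FANCM, the translocase that recruits the Fanconi anaemia core complex, read 6.90 and 6.81 on GV adult replicates 2 and 3 and 8.26 to 9.95 on the other 7 arrays. Its adult maturation difference was 2.75 (SE 1.03, adjusted p 0.309 in limma) against -0.71, and its age difference at GV 2.81 against -0.59. Over 12 arrays these were 1.75 against -0.74 and 1.54 against -0.93. Over the 9 arrays, the second probe set thus had the opposite sign for all 4 genes that had an unadjusted p under 0.05 in limma between the ages at GV. Each of those opposite values lay within 1 SE of 0.

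**Figure D4:**
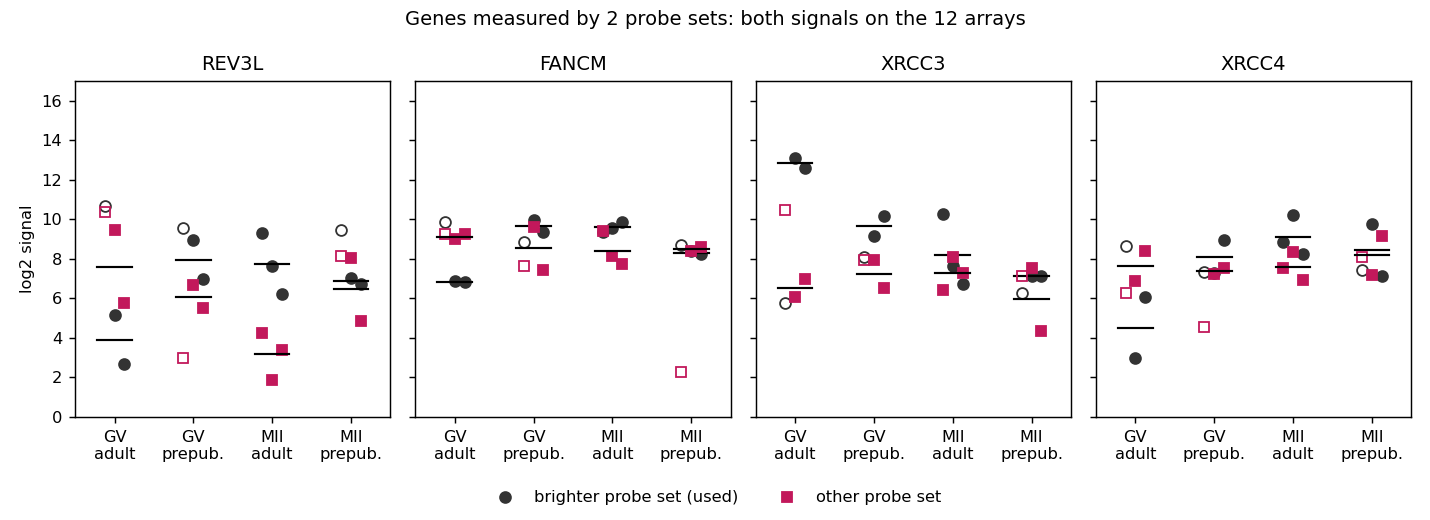
For REV3L, FANCM, XRCC3 and XRCC4 the log2 signals of both probe sets are plotted on all 12 arrays by group, dark circles for the brighter one that was used and red squares for the other; open symbols are arrays without an oocyte profile and lines are group means over the 9 arrays. The filled dark GV adult points stand apart from the other filled dark points in each panel, and the filled red GV adult points lie among or near the other filled red ones.

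Over all 22 genes with several probe sets, 27 further probe sets passed the filter. These had the sign of the probe set used, over the 9 arrays, in 16 of 27 cases for age at GV, 13 for age at MII, 13 for maturation in adults and 17 for maturation in heifers. Probe sets of 1 gene share its arrays and are not independent of each other. A dimmer POLD3 probe set, singled out after its values were seen, read 3.07 and 1.18 on GV adult replicates 2 and 3. On the MII adult arrays it read 8.17, 8.83 and 7.04. Its adult maturation difference was 5.88 over the 9 arrays (SE 1.33, adjusted p 0.108 in limma) and 3.45 over 12. Over the 9, the POLD3 probe set used gave 0.77 and the third -0.65. For age at GV the 3 gave 4.74, -0.48 and 0.33 in the same order.

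Among the clamp, clamp-loading and single-strand binding genes, RPA3 and RAD17 read lower at MII in both ages on the 9 arrays, by 0.61 to 1.23 log2 units. RPA3, the smallest subunit of the single-strand binding protein RPA, read 9.54, 14.83 and 14.27 on GV adult replicates 1, 2 and 3, and 14.67, 14.79 and 14.65 on the GV heifer replicates. At MII it read 13.64, 13.50 and 13.96 in adults and 14.20, 13.27 and 13.72 in heifers. On the 9 arrays the GV values of RPA3 ran from 14.27 to 14.83 and the MII values from 13.27 to 13.96, without overlap. The difference over those arrays was -0.85 (SE 0.39, adjusted p 0.426 in limma) in adults and -1.23 (SE 0.43, adjusted p 0.666) in heifers. Over all 12 it was 0.82 in adults, and without GV adult replicate 1, at 9.54, it was -0.85.

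RAD17, which loads the checkpoint clamp, read 8.35, 14.71 and 14.88 on the GV adult arrays and 9.58, 14.83 and 15.17 on the GV heifer arrays. At MII it read 14.28, 13.82 and 14.46 in adults and 9.77, 14.05 and 14.18 in heifers. All 3 arrays without an oocyte profile read at least 4 log2 units below the other 9. RAD17 differed over the 9 arrays by -0.61 (SE 0.35, adjusted p 0.558 in limma) between MII and GV in adults and by -0.89 (SE 0.38, adjusted p 0.682) in heifers, and with median centring by -0.51 and -0.09. Over 12 arrays the adult difference had the other sign, 1.54 (SE 1.82), and the heifer difference was -0.53 (SE 1.82). RPA1 and RPA2, the larger subunits of RPA, did not separate the stages: they ranged from 8.49 to 11.04 and from 7.84 to 10.46 on the 9 arrays. PCNA, the sliding clamp, read 12.86 to 14.32 on the 9 arrays and 8.35, 11.74 and 11.24 on the other 3, and differed between the stages by 0.46 (SE 0.50) in adults and 0.32 (SE 0.54) in heifers, with adjusted p of 0.784 and 0.936 in limma; over 12 arrays these were 2.20 and 0.04.

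LIG1, the ligase that joins Okazaki fragments, had higher MII than GV means in both ages on the 9 arrays. On GV replicates 2 and 3 it read 13.52 and 14.87 in adults and 13.97 and 13.41 in heifers; at MII it read 14.64, 15.18 and 14.67 in adults and, on replicates 2 and 3, 14.65 and 15.01 in heifers. The 3 arrays without an oocyte profile read 8.45, 8.16 and 9.86. The difference over the 9 arrays was 1.15 in heifers (SE 0.47, adjusted p 0.682 in limma) and 0.63 in adults (SE 0.43, adjusted p 0.638), where the groups overlapped. Over 12 arrays it was 1.33 in heifers and 2.55 in adults (SE 1.82 for both). The 2 other LIG1 probe sets gave the same direction, 1.46 and 1.25 in heifers and 0.55 and 0.70 in adults. LIG3, of base excision and mitochondrial repair, ranged from 7.58 to 9.62 and LIG4, of end joining, from 4.25 to 8.15.

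RNase H2 has a catalytic subunit, RNASEH2A, and the partners RNASEH2B and RNASEH2C. RNASEH2A read 9.85, 6.34 and 9.94 on the GV adult arrays and 4.52, 5.16 and 7.56 on the GV heifer arrays. At MII it read 6.74, 2.12 and 4.92 in adults and 6.97, 8.60 and 6.20 in heifers. GV adult and MII heifer arrays had the higher means over 12 arrays, and the pools of 1 group overlapped those of the other groups. Replicate 1 of the GV adults (9.85), GV heifers (4.52) and MII heifers (6.97) had no oocyte profile. Over the 9 arrays the adult means were 8.14 (SD 2.54) at GV and 4.60 (SD 2.33) at MII. The heifer means were 6.36 (SD 1.70) and 7.40 (SD 1.69). Over 12 arrays MII minus GV was -4.12 in adults (SE 1.59, adjusted p 0.585 in limma) and 1.51 in heifers (SE 1.59, adjusted p 0.999), and the 2 changes differed by 5.63 (SE 2.25, unadjusted p 0.0214, adjusted p 1.0), in a comparison where 1.21% of all probe sets had an unadjusted p under 0.05. The changes differed by 4.58 over the 9 arrays (SE 2.56, adjusted p 0.999 in limma).

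RNASEH2C read 10.31, 11.60 and 11.28 on the GV adult arrays, 11.53, 12.65 and 13.41 on the GV heifer arrays, 10.67, 9.81 and 4.55 on the MII adult arrays and 13.32, 10.91 and 11.35 on the MII heifer arrays. Every MII heifer array lay above every MII adult array, with a difference of 3.52 over 12 arrays (SE 1.38, unadjusted p 0.0194, adjusted p 1.0 in limma). The highest MII heifer reading, 13.32, came from replicate 1, an array without an oocyte profile. Over the 9 arrays the MII means were 11.13 (SD 0.31) in heifers and 8.34 (SD 3.32) in adults. Leaving only MII adult replicate 3, which read 4.55, out of the 12 arrays gave a difference of 1.62. RNASEH2B read from 1.71 to 10.01 on the 9 arrays, and these extremes were the 2 MII heifer arrays.

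Of the homologous recombination genes other than XRCC3, none had an unadjusted p under 0.05 in limma in any of the 4 comparisons over 12 or 9 arrays. BRCA1 ranged from 4.88 to 9.32 on the 9 arrays, MRE11 and NBN, which form a complex with RAD50, from 7.75 to 11.89 and from 6.87 to 10.84, and RAD52 from 2.70 to 9.15. Their within-group SDs over the 9 arrays were 1.93 for BRCA1, 1.43 for MRE11, 1.70 for NBN and 2.19 for RAD52. RAD50 is given below with the other genes of the pathway.

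The 4 genes of end joining and single-strand break repair all had a positive maturation difference in adults over the 9 arrays (median 2.01). In heifers 3 of the 4 did (median 0.99). Of all probe sets, 51.1% had a positive difference in adults (median 0.05) and 46.6% in heifers (median -0.14). Of the 4 genes, XRCC4 had a second probe set that gave -0.03 in adults. XRCC1, the scaffold of single-strand break repair, read 5.42, 8.04 and 8.06 on the GV adult arrays and 9.66, 10.35 and 11.80 on the MII adult arrays, without overlap. The GV heifer arrays read 8.47, 9.94 and 7.37, and the MII heifer arrays 8.14, 10.48 and 10.14. The adult difference was 3.43 over 12 arrays (SE 1.21, unadjusted p 0.0104, adjusted p 0.563 in limma) and 2.55 over the 9 (SE 1.08, adjusted p 0.376). In heifers it was 1.0 over 12 arrays and 1.66 over the 9. A second XRCC1 probe set gave 4.37 in adults over the 9 arrays (SE 1.29, adjusted p 0.184 in limma) and 1.58 in heifers. The third XRCC1 probe set, with a mean of 5.47, did not pass the filter and was not tested. It read 5.76 and 3.61 on GV adult replicates 2 and 3 and 5.79, 3.69 and 4.00 on the MII adult arrays. XRCC6, a subunit of the Ku heterodimer that binds broken ends, ranged from 5.75 to 6.84 on the 4 GV arrays and from 7.22 to 8.84 on the 5 MII arrays; its differences were 1.46 (SE 1.26) in adults and 1.63 (SE 1.38) in heifers, with adjusted p of 0.727 and 0.853 in limma. Over 12 arrays the heifer difference of XRCC6 was 0.17. XRCC5, the other Ku subunit, ranged from 2.71 to 9.94 on the 9 arrays, with adult means of 6.96 at GV and 7.26 at MII.

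In the Fanconi anaemia pathway, which unlinks crosslinked DNA, FANCG had the largest adult difference. This member of the core complex read 8.77, 7.60 and 9.56 on the GV adult arrays and 0.32, 7.42 and 3.02 on the MII adult arrays. The groups did not overlap, but the MII adult reading of 7.42 lay just under the lowest GV adult reading, 7.60. The MII adult values had a mean of 3.59, below the filter level of 5.57, and an SD of 3.59. The size of the difference rests on the MII adult readings of 0.32 and 3.02, which lay below that level. MII minus GV was -5.06 over 12 arrays (SE 1.65, unadjusted p 0.00645, adjusted p 0.563 in limma), beside 15.3% of all probe sets whose adult groups did not overlap and 7 of the 61 genes. FANCG read 8.00, 8.80 and 6.89 on the GV heifer arrays and 6.95, 5.98 and 4.39 on the MII heifer arrays. FANCL kept within 11.32 to 12.83 on the 9 arrays, and FANCI and FANCE ranged from 4.48 to 11.27 and from 1.63 to 7.96.

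Of the 3 mismatch repair genes, PMS1, a MutL homolog, read lower at MII on the 9 arrays and MSH5 higher. PMS1 read 9.30, 11.08 and 10.43 on the GV adult arrays and 7.32, 12.00 and 11.24 on the GV heifer arrays. At MII it read 8.13, 10.13 and 4.33 in adults and 8.37, 9.53 and 9.01 in heifers. On the 9 arrays every MII value was under the lowest GV value, 10.43, and the difference was -3.22 in adults (SE 1.36, adjusted p 0.376 in limma) and -2.35 in heifers (SE 1.49, adjusted p 0.796); over 12 arrays the heifer difference was -1.22. MSH5, which acts with MSH4 in meiotic crossing over, read 5.28, 5.71 and 6.56 on the GV heifer arrays and 1.61, 9.03 and 9.37 on the MII heifer arrays. Replicate 1 was the lowest at both stages. The difference was 3.06 over the 9 arrays (SE 1.21, adjusted p 0.682 in limma) and 0.82 over all 12 (SE 1.64, adjusted p 0.999). In adults MSH5 read 9.25, 7.76 and 8.87 on the GV arrays and 9.30, 8.86 and 9.50 at MII, and the groups overlapped. MSH6, which recognises mismatches, ranged from 8.53 to 11.97.

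The nucleotide excision repair genes were variable between pools. ERCC1, a subunit of the excision nuclease, ranged from 2.95 to 8.76 on the 9 arrays, ERCC4, its partner, from 7.08 to 11.60 and RAD23B, a damage-recognition cofactor, from 11.33 to 13.80. Of the 6 tested, over these arrays, 5 were higher at MII in adults (median 0.81) and 4 in heifers (median 0.53), and 1 had an unadjusted p under 0.05 in limma, ERCC6 in adults, a remodeller of transcription-coupled repair that was singled out after its values were seen (2.70 higher at MII, SE 1.21, adjusted p 0.413, and 1.41 higher over 12 arrays). The 6 tested ADP-ribosyltransferases had a median maturation difference of -0.58 in adults, with 1 of 6 higher, and 0.23 in heifers, with 3 of 6 higher. By the probe set used, 0 of them had an unadjusted p under 0.05 in limma in any of the 4 comparisons over the 9 arrays. PARP1, the sensor of strand breaks, read 11.79 and 12.48 on GV adult replicates 2 and 3 and 10.19 to 11.15 on the 3 MII adult arrays, while replicates 2 and 3 of the heifers read 10.40 and 11.47 before and 11.60 and 11.58 after maturation. The maturation change of PARP1 in heifers minus that in adults was 2.07 (SE 1.08, adjusted p 0.999 in limma) and 1.01 over 12 arrays, and that of POLB, the polymerase of base excision repair, 3.27 (SE 1.71, adjusted p 0.999). Over the 9 arrays 3 of the 61 genes (FANCM, REV3L and POLD1) had an unadjusted p under 0.05 in limma for this difference between ages, beside 3.06% of all probe sets, and 0 passed the adjusted threshold (0%).

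Among the ADP-ribosyltransferases, PARP12 was measured by 4 probe sets, the brightest of which read between 14.71 and 15.95 on the 9 arrays, where the choice of probe set again changed its direction. The probe set used differed by -0.33 (SE 0.34) between MII and GV in adults and by -0.63 (SE 0.37) in heifers; over 12 arrays it differed by 2.71 (SE 2.02) and -0.37 (SE 2.02). The 3 others gave, over the 9 arrays, 1.12, 2.24 and 2.23 in adults and 2.41, 2.26 and 2.32 in heifers, with the lowest adjusted p of the 6 at 0.167 in limma. In the same order the unadjusted p in limma were 0.0703, 0.00255 and 0.0250 in adults and 0.00163, 0.00463 and 0.0318 in heifers. Of all probe sets, 11.4% had an unadjusted p under 0.05 in adults and 6.99% in heifers. These 3 PARP12 probe sets were singled out after their values were seen.

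**Figure D5:**
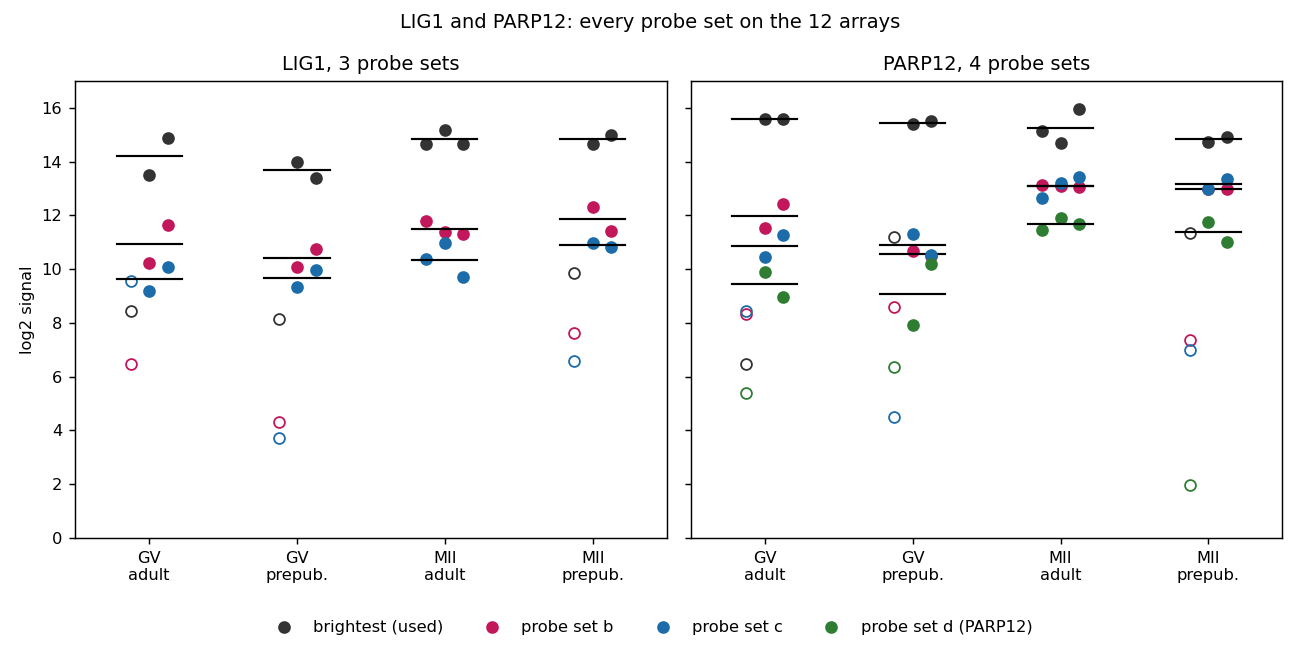
The log2 signal of all 3 LIG1 probe sets (left) and all 4 PARP12 probe sets (right) is shown on the 12 arrays by group, with the brightest, used one in black, open symbols for the 3 arrays without an oocyte profile and lines at group means over the 9 arrays. The LIG1 means are higher at MII for each probe set, while for PARP12 the 3 dimmer probe sets are higher at MII and the brightest is not.

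The last 3 genes matched the group by name and were placed in none of the classes above, and 1 of them, ERCC6L, separated the stages on the 9 arrays. ERCC6L, a DNA translocase found on the fine bridges between separating chromosomes, read 9.83, 3.94 and 6.63 on the GV adult arrays and 2.84, 5.31 and 6.54 on the GV heifer arrays. At MII it read 9.42, 8.77 and 8.82 in adults and 5.06, 8.81 and 7.53 in heifers. All 5 MII arrays with an oocyte profile lay above all 4 such GV arrays, also with quantile normalization and with median centring. The difference over the 9 arrays was 3.72 in adults (SE 1.31, adjusted p 0.277 in limma) and 2.25 in heifers (SE 1.44, adjusted p 0.796); over 12 arrays the adult difference was 2.21. RAD21 ranged from 12.02 to 13.11 and ERCC6L2 from 3.81 to 8.58.

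The arrays without an oocyte profile differed from the other 9 in many of these genes. On both prepubertal replicate 1 arrays, 10 of the 61 genes (16.4%) were below all 9, beside 9.27% of all probe sets, among them LIG1, MSH5, PARP12, PARP16, PCNA, POLD3, POLE2, RAD17 and RAD18. POLE2 read 0.80 and 3.53 on those arrays against 7.78 to 11.06, and POLD3, an accessory subunit of polymerase delta, 4.65 and 8.23 against 10.52 to 13.40. Only 3 genes (4.92%, beside 13.7%) were above all 9 on both: NBN, PARP14 and REV3L. PARP14, an ADP-ribosyltransferase known from interferon responses, read 10.62 and 9.19 there and 2.38 to 7.60 on the 9 arrays. On GV adult replicate 1, 17 genes (27.9%, beside 19.0%) were below all 9 and 12 (19.7%, beside 32.7%) above. These arrays also had the high granulosa markers, or the low oocyte markers, given above; their part in each of these readings was not tested.

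Of a list of 125 further genes of DNA replication and repair, 74 were measured and 70 passed the filter. Over the 9 arrays, 5 of the 70 (7.14%, beside 4.64% of all probe sets) had an unadjusted p under 0.05 in limma for age at GV, 4 of them higher in heifers, and 1 (1.43%, beside 2.56%) for age at MII. The count was 6 for maturation in adults (8.57%, below the 11.4% of all probe sets), 3 of them higher at MII, and 5 for maturation in heifers (7.14%, beside 6.99%), 2 of them higher. RAD50 was the only one that passed the adjusted threshold over these arrays, in adults (beside 0.118% of all probe sets), at 3.84 higher at MII (SE 0.61, adjusted p 0.0215 in limma). In heifers RAD50 was 1.65 higher (SE 0.67, adjusted p 0.682 in limma), and 0.40 over 12 arrays. MCM6, a subunit of the replicative helicase, was 3.20 higher at MII in adults (SE 0.68, adjusted p 0.0834 in limma), and PRIMPOL, MCM6 and RAD50 were higher on every MII array than on every GV array of the 9 (3 of 70, beside 3.82% of all probe sets). TOP1, the topoisomerase that relieves torsion ahead of forks, was the 1 gene of 70 (beside 3.53%) that was lower on every MII array of the 9, with differences of -2.02 in adults (SE 0.49, adjusted p 0.130 in limma) and -1.24 in heifers (SE 0.53, adjusted p 0.682). Over 12 arrays the TOP1 differences were 0.05 and -0.56.

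The remaining named genes of that list did not pass the adjusted threshold either. In adults MII minus GV was 4.15 for TOP3A, a topoisomerase of recombination (SE 1.52, adjusted p 0.296 in limma), -2.89 for TIMELESS, of the fork protection complex (SE 0.98, adjusted p 0.258; -1.51 over 12 arrays), and -1.89 for PRIM2, the large primase subunit (SE 0.84, adjusted p 0.407). CDC7, the kinase that fires replication origins, had a heifer minus adult difference of -2.82 at GV (SE 0.64, unadjusted p 0.000503, adjusted p 0.695 in limma) and an MII minus GV difference of 2.19 in heifers (SE 0.64, adjusted p 0.595). Both CDC7 differences use the same 2 GV heifer arrays, and over 12 arrays they were -0.56 and 1.29. At GV heifers minus adults was also 2.94 for FEN1, the flap nuclease (SE 1.11, adjusted p 0.997 in limma), 2.01 for MCM6 (SE 0.74, adjusted p 0.997; 0.89 over 12 arrays) and 3.80 for NEIL1, a base excision glycosylase (SE 1.57, adjusted p 1.0). SMUG1 and TDG, glycosylases that remove uracil and thymine from mismatches, had MII minus GV differences of -4.21 (SE 1.90) and -3.61 (SE 1.66) in heifers, with adjusted p of 0.698 and 0.701 in limma. At MII, TDG differed by -3.97 between heifers and adults (SE 1.52, adjusted p 1.0 in limma), and by -1.53 over 12 arrays.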

How the data were processed

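The values are log2 signals as deposited by the authors in the series' value table. MAS5, with no version, is the tool named in the submitters' processing notes. Since the linear signals of each array, trimmed by 2% at either end, average 500, they were not rescaled. The array medians lie between 5.64 and 8.30. The table has 24128 probe sets, 112 of them controls that were not used; of the other 24016, 13292 had 1 gene symbol in the platform annotation, 86 several and 10638 none. All 68 members matched the cattle gene table by Entrez identifier with their symbol unchanged. Probe sets with a mean over 12 arrays above the 40th percentile (14409) were fitted.

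A linear model with 4 group means was fitted to all 12 arrays (8 residual degrees of freedom) in R 4.3.3 with limma 3.58.1, using eBayes with an intensity trend. P-values were Benjamini-Hochberg adjusted over the 14409 probe sets, at a threshold of 0.05. The fit of 9 arrays had 5 residual degrees of freedom and the fit of 8 had 4. Contrasts were heifer minus adult (for GV, then for MII), MII minus GV (for adults, then for heifers), and the difference of the 2 maturation changes. Precision is limited by the number of arrays.

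The members and lists, and the arrays left out, were chosen with earlier results of these data known. Genes were named by rule: REV3L, POLE4 and RNASEH2A; members called in any fit; in each of the 4 simple comparisons up to 4 members per direction with the smallest unadjusted p under 0.05 over 12 and over 9 arrays; up to 3 per direction for the difference of the changes; and up to 3 further pathway genes per direction and comparison. Deviations of same-numbered GV and MII pools from their group means correlated at 0.609, 0.149 and 0.306 in heifers and at -0.105, 0.0152 and -0.0849 in adults. Between ages the correlations were 0.383, -0.0215 and 0.381 at GV and -0.0934, 0.0959 and -0.0736 at MII. The group means included replicate 1, which lacks an oocyte profile in both heifer groups and in GV adults and so shifts the other deviations. These correlations therefore cannot show whether same-numbered pools are pairs. Alternatives were 2 other scalings, 2 other filters, a pseudocount of 32, array weights and no trend. Others were only the compared groups, a replicate block, averaging the probe sets of a gene and leaving out each array. A replicate block for same-numbered heifer pools in the fits of 9 and 8 arrays (4 and 3 residual degrees of freedom) was chosen later. No genome coordinates or sequences were used.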

Additional observations from a re-analysis of the deposited data

How the results depend on the processing

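No member passed the adjusted threshold in limma in any of the 5 comparisons under quantile normalization, median centring, either filter, a pseudocount of 32, array weights, no intensity trend, only the compared groups, the mean of probe sets, the 9 arrays under any scaling, or without any single array (0 to 0 members). With the replicate block, which has 2 residual degrees of freedom, 0 members were called in each of the 4 comparisons it could be fitted to over 12 arrays, where none was called without it either. Over 8 arrays 1 member, POLE4, was called in adults and 1 in heifers, and 1 in adults with quantile normalization. With same-numbered heifer pools as a replicate block POLE4 was no longer called in heifers (adjusted p 0.154 over 8 arrays and 0.722 over the 9, in limma). The scalings of the 8 arrays and this block were chosen after that call was seen. Over 12 arrays, 1 of 61 members had an unadjusted p under 0.05 in limma and at least a 2-fold change for age at MII. There were 4 for maturation in adults and 3 for the difference of the changes. By the unadjusted p alone these counts were the same, 1.64%, 6.56% and 4.92% of members, beside 2.66%, 7.93% and 1.21% of all probe sets. The 3 were RNASEH2A, with a positive difference, and 2 replicative polymerase genes with negative ones, POLA2 among them (-6.12, SE 2.75, unadjusted p 0.0384 in limma).

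The members' median moved by more than the pooled SD of 0.54 in few settings. With median centring it was 1.13 in adults and 0.56 in heifers for maturation; over the 9 arrays with centring 0.40 for age at MII, 0.94 in heifers and 0.55 for the difference of the changes, which was 0.12 with quantile normalization of the 9; over the 8 arrays with centring 0.94 in heifers and 0.37 for the difference. The median of all tested probe sets moved with them: with centring to 0.68 in adults and 0.62 in heifers over 12 arrays, and to 0.44, 0.66 and 0.53 for the 3 comparisons of the 9. Leaving out each array gave medians from 0.11 to 0.62 for age at GV, -0.72 to 0.03 for age at MII, 0.10 to 0.75 for maturation in adults, -0.53 to 0.35 in heifers (0.35 without MII prepubertal replicate 1) and -0.96 to 0.14 for the difference of the changes (0.14 without the same array).

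Of 44 named differences, with 1235 values under alternatives, 1177 kept direction and side of the threshold, 51 turned direction and 7 newly passed it (POLE4 and RAD50); 31 differences never turned. REV3L turned with the mean of its probe sets, to -0.57 for age at GV, -1.90 for maturation in adults and 2.50 for the difference of the changes, and ranged from -0.20 to 3.81 in adults without single arrays. For maturation in adults, POLE4 (-0.38) was 0.04 with quantile normalization and 0.41 with centring, and ran from -2.89 to 1.09 without single arrays. RAD17 (1.54) was -0.08 with array weights, -0.61, -0.40 and -0.51 over the 9 arrays as deposited, quantile-normalized and centred, and -0.74, -0.24 and -0.46 over the 8; without single arrays it ran from -0.61 to 2.66. RPA3 (0.82) was in the same order -0.58, then -0.85, -0.70 and -0.75, then -0.98, -0.57 and -0.69, and ran from -0.85 to 1.79. TOP1 (0.05) was -1.20, then -2.02, -1.78 and -1.92, then -1.90, -1.50 and -1.62, and ran from -2.02 to 1.3. For maturation in heifers, RAD17 (-0.53) was 0.38 with centring and 0.08 with array weights and ran from -2.33 to 0.92 without single arrays; TOP1 (-0.56) was 0.34 with centring and 0.23 with the mean of probe sets. LIG1 ran from -0.51 to 2.99, MSH5 from -0.53 to 3.35 and RAD50 from -0.52 to 2.11 without single arrays. CDC7 for age at GV (-0.56) was 0.26 with quantile normalization and ran from -2.70 to 0.53. Where GV adult replicate 1 or a prepubertal replicate 1 was left out, fewer arrays without an oocyte profile remained; beyond that the cause was not tested.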
